A study of Homo sapiens with 9 samples.

Results

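The SERTA domain family was described in A549 cells, a human lung adenocarcinoma line, in which REV1 had been silenced. Its 5 genes, SERTAD1, SERTAD2, SERTAD3, SERTAD4 and CDCA4, were taken by symbol from the 18143 genes of the deposited tables, and all 5 were listed in every library. A549 cells had been transfected for 48 h with scramble siRNA (Scramble), or with 1 of 2 siRNAs against REV1 (SiREV1#1 or SiREV1#2), and each of these 3 groups held 3 replicates, which makes 9 libraries. No other agent or genetic change is named for any of the groups, and the study's methods say of its cell experiments in general that 3 independent repeats were made, without naming the sequenced libraries. The p-values measure the spread between these libraries. The comparison asks whether SERTAD2, a gene that the study picked from these same libraries, moved alone within its family after REV1 silencing. Because SERTAD2 was picked in this way, its own fall is not independent evidence, and the values of the other 4 genes carry the comparison.

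SERTA proteins share a short conserved domain, through which SERTAD1 was first found to bind the cyclin-dependent kinase CDK4. The SERTAD proteins, also known as TRIP-Br proteins, are transcriptional coregulators that contact E2F and its partner DP proteins, the factors that switch on genes for entry into S phase, as well as coactivators and corepressors with PHD fingers and bromodomains. SERTAD2 has been described as an E2F coactivator that leaves the nucleus through the exportin XPO1, SERTAD3 as a binding partner of the replication protein RPA2, and CDCA4 as an E2F target that also regulates E2F-driven transcription. SERTAD4 is the least studied of them. REV1, the silenced gene, encodes a translesion DNA polymerase that also serves as a scaffold for other translesion polymerases.

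All 5 genes are compact, and 4 of them have 2 exons. In GRCh38.p14 SERTAD2 lies on the minus strand at chr2:64631621-64653913 and encodes 314 residues. SERTAD1 at chr19:40421589-40425992 (236 residues) and SERTAD3 at chr19:40440844-40444335 (196 residues) are direct neighbours on the minus strand of chromosome 19, with 14851 bases between them. CDCA4 lies on the minus strand at chr14:105009573-105021083 (241 residues), and SERTAD4 lies on the plus strand at chr1:210232796-210246631 with 4 exons and 356 residues. SERTAD2 has the longest 3′ untranslated region of the family, 4306 bases, against 646 bases in SERTAD3, 1244 in SERTAD1, 1631 in CDCA4 and 3918 in SERTAD4. Of all 50-base words in the transcripts, 1.21% of those of SERTAD1 and 0% of those of the other 4 genes also occurred in another gene. The annotated span of SERTAD2 overlaps that of the antisense gene SERTAD2-AS1 over 11643 bases, and that of SERTAD4 overlaps SERTAD4-AS1 over 1090 bases. These spans include introns, and the overlap of exons was not measured. Neither antisense gene is listed in the tables. Since a stranded protocol is not stated, reads of the 2 strands cannot be told apart wherever exons do overlap.

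The promoters of SERTAD2, SERTAD1 and SERTAD3, from 250 bases before to 50 bases after the RefSeq start, are shown because these genes shared 1 pattern across replicates and differed in their response to the siRNAs. SERTAD4 also shared the pattern across replicates, and its promoters are not shown. Capitals mark 4 words wherever they occur on either strand. They are the GC box GGGCGG, the CCAAT box, the half-site TGACG of cyclic AMP elements, and the E2F word TTCCCGC.
SERTAD2, chr2:64653864-64654163, minus strand: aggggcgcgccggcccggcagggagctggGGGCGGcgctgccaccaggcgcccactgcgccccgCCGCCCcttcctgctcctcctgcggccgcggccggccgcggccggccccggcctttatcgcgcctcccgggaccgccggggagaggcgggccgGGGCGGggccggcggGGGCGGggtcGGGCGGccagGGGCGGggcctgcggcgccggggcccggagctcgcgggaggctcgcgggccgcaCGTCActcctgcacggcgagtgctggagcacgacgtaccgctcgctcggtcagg
SERTAD1, chr19:40425943-40426242, minus strand: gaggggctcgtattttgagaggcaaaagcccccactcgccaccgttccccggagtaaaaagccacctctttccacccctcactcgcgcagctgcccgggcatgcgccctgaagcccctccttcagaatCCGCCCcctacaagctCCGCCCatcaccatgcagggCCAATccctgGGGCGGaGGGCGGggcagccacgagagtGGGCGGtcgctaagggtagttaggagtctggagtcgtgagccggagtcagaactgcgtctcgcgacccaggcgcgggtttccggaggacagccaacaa
SERTAD3, chr19:40444286-40444585, minus strand: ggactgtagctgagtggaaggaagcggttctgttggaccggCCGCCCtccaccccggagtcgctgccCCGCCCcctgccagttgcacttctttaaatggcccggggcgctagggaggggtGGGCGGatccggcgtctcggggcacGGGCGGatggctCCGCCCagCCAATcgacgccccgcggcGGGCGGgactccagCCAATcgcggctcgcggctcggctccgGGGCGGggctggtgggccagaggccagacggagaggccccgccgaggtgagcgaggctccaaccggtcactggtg
The SERTAD2 promoter was 83.7% G and C with 49 CpG dinucleotides, and 99.5% of 35116 RefSeq promoters had a lower GC content. The promoters of SERTAD1 (64.7% G and C, 23 CpG) and SERTAD3 (73.0%, 33 CpG) were less rich. That of CDCA4 was 79.3% G and C with 52 CpG, more CpG than in SERTAD2. The GC box occurred 6 times in the SERTAD2 promoter, 5 times in that of SERTAD1 and 7 times in that of SERTAD3, and 45.0% of all promoters held at least 1. The CCAAT box was found once in SERTAD1, 2 times in SERTAD3 and not in SERTAD2, and 34.6% of all promoters held it. The half-site TGACG occurred once in SERTAD2, in neither of the other 2 promoters shown and in 24.6% of all promoters. It also occurred once in 1 of 2 promoters of SERTAD4, and not in that of CDCA4. The E2F word TTCCCGC was absent from these 3 windows but occurred 2 times in the promoter of CDCA4 and 2 times in 1 of 2 promoters of SERTAD4, against 6.55% of all promoters. The longer E2F word TTTGGCGC and the TATA word TATAAA, searched on both strands, occurred in none of the family's windows, and were held by 0.652% and 11.5% of all promoters. A match of TTCCCGC can share letters with a GC box, and these matches describe letters in the windows only.

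Total counts per library were between 13059082 and 20166451 reads assigned to genes. The count column supplied for SiREV1#2 replicate 3 was equal to that of replicate 2 in 100% of genes, whereas its FPKM values were its own (among genes with a mean FPKM above 1, 0.726% had the same FPKM in both), so tests on counts held 8 libraries and FPKM values held 9. FPKM is the number of fragments per kilobase of transcript, scaled to the mapped fragments of the library, and was the scale used to compare levels between genes. Replicate 1 stood apart from replicates 2 and 3 in each of the 3 groups, and same-numbered libraries of different groups deviated together from their group means (correlations of 0.732 to 0.925 over 9 pairs of libraries). The shift of replicate 1 enters each of these correlations, and libraries of different numbers were not compared, so a pairing of replicates 2 and 3 by number is not shown. Tests of the members were therefore run without and with the replicate number as a block. Epithelial markers fixed for A549 summed to between 4266 and 10854 FPKM, nearly all of it from KRT8 and KRT18, while the lung marker NKX2-1 was between 0.07 and 0.26 FPKM. Markers of blood, endothelial and fibroblast cells summed to between 0.37 and 2.15 FPKM over the 4 of 5 listed. The targeted gene REV1 was at 7.23, 7.9 and 8.44 FPKM in Scramble replicates 1, 2 and 3, at 2.6, 2.92 and 3.36 FPKM after SiREV1#1, and at 3.62, 3.36 and 3.18 FPKM after SiREV1#2. REV1 was lower in all 6 silenced libraries than in any Scramble library, by 1.26 (SE 0.17, edgeR adjusted p = 0.042) and 1.33 (SE 0.20, adjusted p = 0.154) on the log2 scale without the block, and with adjusted p = 0.00165 and 0.00989 with it.

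SERTAD3 was the most highly expressed member in each of the 9 libraries and SERTAD4 the lowest. In Scramble the mean FPKM was 58.3 ± 28.4 for SERTAD3, 37.5 ± 23.6 for SERTAD1, 21.2 ± 10.8 for SERTAD2, 14.1 ± 1.40 for CDCA4 and 0.597 ± 0.344 for SERTAD4 (SD, n = 3 each). Among neighbours in this order, the ranges over replicates overlapped for SERTAD3 and SERTAD1, for SERTAD1 and SERTAD2, and for SERTAD2 and CDCA4, and SERTAD4 lay apart from all of them. After either siRNA the order of the means changed at 1 place, where SERTAD2 passed below CDCA4, with 8.62 ± 3.85 against 10.8 ± 2.00 FPKM after SiREV1#1 and 8.13 ± 4.46 against 12.2 ± 1.59 FPKM after SiREV1#2 (SD, n = 3), and with overlapping ranges in both groups. The large SDs of SERTAD1, SERTAD2, SERTAD3 and SERTAD4 came from replicate 1, which was the lowest library of every group for each of these 4 genes.

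**Figure D1:**
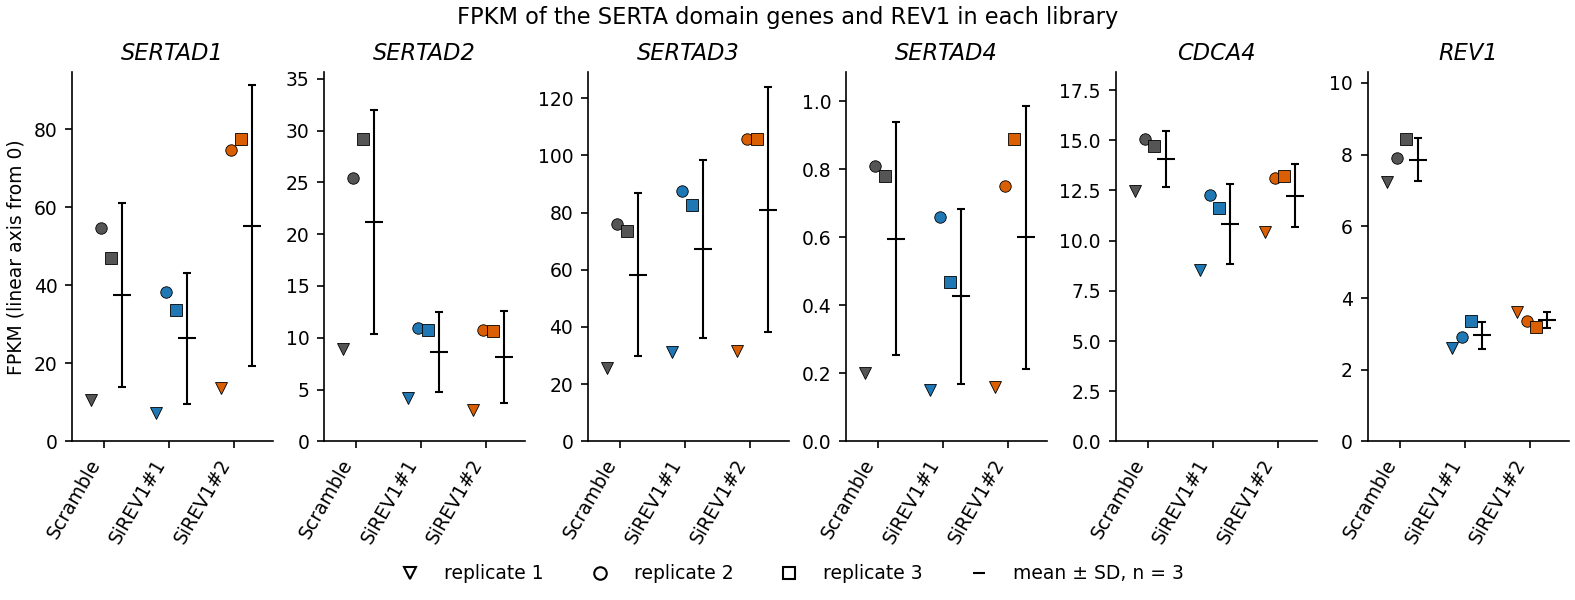
FPKM (linear axes from 0, a separate scale for each gene) of the 5 SERTA domain genes and REV1 in each of 9 libraries, with triangles, circles and squares for replicates 1, 2 and 3 and bars for the mean ± SD of 3 libraries. SERTAD2 was at 25.4 and 29.2 FPKM in Scramble replicates 2 and 3 and between 10.6 and 10.9 FPKM in the same replicates of both silenced groups, while replicate 1 was the lowest of its group for SERTAD1 to SERTAD4.

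SERTAD2, the E2F coregulator of the family, was lower after both siRNAs in every same-numbered pair. It was at 8.9, 25.4 and 29.2 FPKM in Scramble replicates 1, 2 and 3, at 4.18, 10.9 and 10.8 FPKM after SiREV1#1, and at 2.99, 10.8 and 10.6 FPKM after SiREV1#2. Scramble replicate 1 lay below replicates 2 and 3 of both silenced groups, so the groups overlapped as a whole, although not within a replicate number. On the scale of log2(FPKM + 0.1), the ratios to the same-numbered Scramble library were -1.07, -1.22 and -1.43 after SiREV1#1 and -1.54, -1.23 and -1.45 after SiREV1#2. These correspond to 0.424 and 0.377 of the Scramble level. The exact two-sided permutation test over libraries, which cannot go below p = 0.1 with 3 against 3, gave p = 0.3 for each siRNA. In edgeR without the block the log2 fold change of counts was -1.24 (SE 0.62, adjusted p = 0.614) after SiREV1#1 and -1.60 (SE 0.72, adjusted p = 0.957) after SiREV1#2. With the block it was -1.16 (SE 0.16, adjusted p = 0.0053) and -1.42 (SE 0.20, adjusted p = 0.0176), and 2.15% and 1.24% of the 14205 genes tested had a lower value. The difference between the siRNAs was 0.26 (SE 0.19, edgeR with the block, adjusted p = 0.384), and limma on log2(FPKM + 0.1) with the block gave it a 95% interval from -0.13 to 0.47. Without Scramble replicate 3, for which the adjusted p with the block was 0.0516, or without SiREV1#1 replicate 3 (0.0531), SERTAD2 missed the threshold after SiREV1#1. After SiREV1#2 it missed it without Scramble replicate 1 (0.103), Scramble replicate 2 (0.180), SiREV1#2 replicate 1 (0.0766) or SiREV1#2 replicate 2 (0.109). In bulk RNA, less SERTAD2 RNA per cell and fewer cells holding it cannot be told apart.

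SERTAD1, the CDK4-binding member, was lower after SiREV1#1 and higher after SiREV1#2 than Scramble in every same-numbered pair. It was at 10.6, 54.7 and 47.0 FPKM in Scramble replicates 1, 2 and 3, at 7.26, 38.4 and 33.7 FPKM after SiREV1#1, and at 13.8, 74.6 and 77.5 FPKM after SiREV1#2. Within each replicate number SiREV1#1 was the lowest of the 3 groups and SiREV1#2 the highest, while over all replicates the groups overlapped. The ratios to the same-numbered Scramble library were -0.55, -0.51 and -0.48 on the log2(FPKM + 0.1) scale after SiREV1#1 and 0.37, 0.45 and 0.72 after SiREV1#2. In edgeR with the block SERTAD1 fell by 0.44 on the log2 scale after SiREV1#1 (SE 0.12, adjusted p = 0.0483), and the value after SiREV1#2 was 0.44 (SE 0.14, adjusted p = 0.151). Without the block these values were -0.46 (SE 0.85, adjusted p = 0.988) and 0.25 (SE 0.94, adjusted p = 1). With the block the difference between the siRNAs was -0.88 (SE 0.14, adjusted p = 0.00639), and without it -0.72 (SE 0.94, adjusted p = 0.884). On FPKM, limma with the block put SERTAD1 past the threshold after both siRNAs, at -0.51 (95% interval -0.76 to -0.26, adjusted p = 0.0144) and 0.51 (0.26 to 0.76, adjusted p = 0.0238). The fall after SiREV1#1 in edgeR with the block missed the threshold when any of the 3 Scramble libraries (adjusted p = 0.116, 0.235 and 0.347 without replicates 1, 2 and 3) or SiREV1#1 replicate 2 (0.264) or 3 (0.351) was left out, and the difference between the siRNAs missed it without SiREV1#2 replicate 2 (0.0604).

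SERTAD3, the RPA2-binding member and the neighbour of SERTAD1, had higher values after both siRNAs. Its levels were 25.5, 75.9 and 73.6 FPKM in Scramble replicates 1, 2 and 3, 31.3, 87.7 and 82.5 FPKM after SiREV1#1, and 31.7, 106 and 106 FPKM after SiREV1#2. Each silenced library was above the same-numbered Scramble library, by 0.16 to 0.29 on the log2(FPKM + 0.1) scale for SiREV1#1 and by 0.31 to 0.52 for SiREV1#2, and the groups overlapped because of replicate 1. These values did not pass the test on counts, with 0.30 (SE 0.13, edgeR with the block, adjusted p = 0.175) and 0.40 (SE 0.15, adjusted p = 0.226), nor without the block (adjusted p = 0.994 and 1). On FPKM with the block, limma gave 0.22 (95% interval -0.02 to 0.46) after SiREV1#1 and 0.44 (0.20 to 0.68, adjusted p = 0.0356) after SiREV1#2.

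CDCA4, itself an E2F target, varied least between replicates. It was at 12.5, 15.1 and 14.7 FPKM in Scramble replicates 1, 2 and 3, at 8.54, 12.3 and 11.6 FPKM after SiREV1#1, and at 10.4, 13.1 and 13.2 FPKM after SiREV1#2. It was the 1 member whose FPKM did not overlap between Scramble and SiREV1#1 (exact permutation p = 0.1, the smallest possible), as in 20.1% of the 11430 genes tested on FPKM. After SiREV1#2 no member stood apart from Scramble in this way, against 16.1% of genes. The log2 fold change of CDCA4 counts was -0.31 (SE 0.12, adjusted p = 0.125) after SiREV1#1 and -0.19 (SE 0.14, adjusted p = 0.526) after SiREV1#2 in edgeR with the block, and -0.31 (SE 0.19, adjusted p = 0.728) and -0.22 (SE 0.21, adjusted p = 1) without it. On FPKM the former was -0.39 (95% interval -0.63 to -0.15, limma with the block, adjusted p = 0.0349) and the latter -0.20 (-0.44 to 0.04). In SiREV1#1 replicate 1, where CDCA4 was lowest, the median log2 ratio of all tested genes to Scramble was -0.21, and it was between -0.05 and 0.02 in the other 5 pairs.

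SERTAD4 had the fewest reads of the family. It had 19, 85 and 82 counts in Scramble replicates 1, 2 and 3, 10, 69 and 47 counts after SiREV1#1, and 6 and 80 counts in replicates 1 and 2 after SiREV1#2. The 6 counts carry an exact Poisson 95% interval of 2.20 to 13.1, which covers counting error only. In FPKM it was at 0.2, 0.81 and 0.78 in Scramble, 0.15, 0.66 and 0.47 after SiREV1#1, and 0.16, 0.75 and 0.89 after SiREV1#2, with overlapping groups. The log2 fold changes of counts with the block were -0.48 (SE 0.31, edgeR adjusted p = 0.350) after SiREV1#1 and -0.57 (SE 0.37, adjusted p = 0.483) after SiREV1#2. Without the block they were -0.44 (SE 0.91, edgeR adjusted p = 0.990) and -0.52 (SE 1.03, adjusted p = 1). When 1 library was left out with the block, the value after SiREV1#2 ran from -1.65 without SiREV1#2 replicate 2 to -0.18 without SiREV1#2 replicate 1. No test found a difference of SERTAD4.

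**Figure D2:**
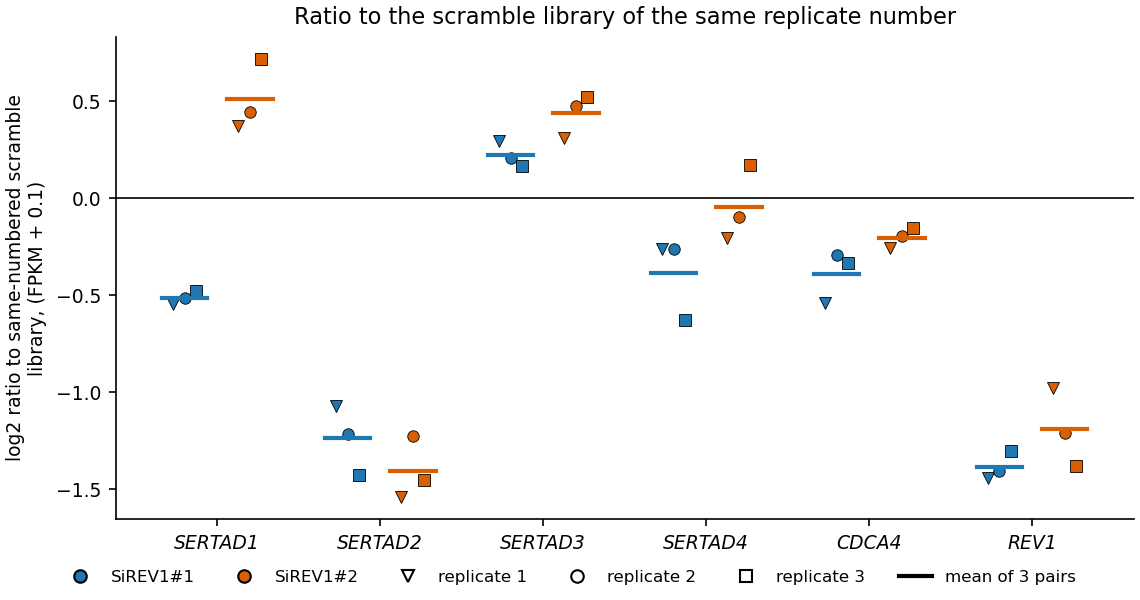
The log2 ratio of (FPKM + 0.1) in each silenced library to the Scramble library of the same replicate number, for the 5 SERTA domain genes and REV1, with a symbol for each replicate and a line at the mean of 3 pairs. SERTAD2 lay between -1.54 and -1.07 in all 6 pairs, SERTAD1 was below 0 in 3 pairs and above 0 in 3, and SERTAD3 was above 0 in 6.

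Counted over same-numbered pairs, 4 of 5 members were lower in 3 of 3 pairs after SiREV1#1 (SERTAD1, SERTAD2, SERTAD4 and CDCA4), against 35.5% of all genes tested, and SERTAD3 alone was higher in 3 of 3, against 19.6%. After SiREV1#2, SERTAD2 and CDCA4 were lower in 3 of 3 pairs, against 29.7% of genes, and SERTAD1 and SERTAD3 higher, against 25.9%. On CPM, in the 2 pairs with their own counts, SERTAD4 was also lower after SiREV1#2, at 0.335 against 1.00 CPM in replicate 1 and 3.90 against 4.16 CPM in replicate 2. SERTAD2 and CDCA4 were thus lower, and SERTAD3 higher, in all 6 pairs on FPKM, for which no share of all genes was taken. Both sets of ratios use the same 3 Scramble libraries. By edgeR without the block, 0 of 5 members passed for either siRNA or for the contrast of the siRNAs, and 0 of 5 had an unadjusted p under 0.05. The shares of all genes called were then 0.296%, 0% and 0.676%, and 1385, 778 and 1762 genes had an unadjusted p under 0.05. DESeq2 and limma without the block also called 0 members, but the shares of all genes that they called were not taken. With the block edgeR called SERTAD1 and SERTAD2 after SiREV1#1, SERTAD2 after SiREV1#2 and SERTAD1 between the siRNAs, where 12.3%, 1.91% and 17.6% of all genes were called. On FPKM with the block, limma called SERTAD1, SERTAD2 and CDCA4 after SiREV1#1 (19.8% of all genes), SERTAD1, SERTAD2 and SERTAD3 after SiREV1#2 (11.3%) and SERTAD1 between the siRNAs (36.2%). With the counts of replicates 2 and 3 only, where SiREV1#2 kept 1 library that was assumed to vary like the others, edgeR called SERTAD1, SERTAD2, SERTAD3 and CDCA4 after SiREV1#1 (46.5% of genes), SERTAD1, SERTAD2 and SERTAD3 after SiREV1#2 (38.4%), and SERTAD1 and SERTAD3 between the siRNAs (54.4%). SERTAD2 then had log2 fold changes of -1.32 and -1.33. This fit leaves out replicate 1, so the spread it measures is that between replicates 2 and 3 only. For SERTAD2 the difference of replicate 3 to replicate 2 in log2(FPKM + 0.1) was 0.20 in Scramble and -0.01 after SiREV1#1.

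To ask whether SERTAD2 moved differently from its relatives, the ratio of SERTAD2 to each other member was formed within each library, which takes out what the 2 genes share. SERTAD2 made up 15.4%, 14.8% and 17.7% of the family's summed FPKM in Scramble replicates 1, 2 and 3, 8.13%, 7.27% and 7.76% after SiREV1#1, and 5.07%, 5.27% and 5.10% after SiREV1#2. In this share replicate 1 did not stand apart. A share of the family's sum has no counterpart over all genes, so no background can be set beside these values. SERTAD3 made up 44.2%, 44.1% and 44.5% in Scramble, 60.9%, 58.5% and 59.3% after SiREV1#1, and 53.7%, 51.6% and 50.9% after SiREV1#2. The shares add up to 100%, so that of SERTAD3 also moves with the other genes, and it was higher after SiREV1#1 than after SiREV1#2 although the level of SERTAD3 was 1.17 and 1.35 of Scramble. The share of SERTAD1 was between 18.4% and 31.8% in Scramble, 14.1% and 25.6% after SiREV1#1 and 23.4% and 37.3% after SiREV1#2, and CDCA4 ran from 6.35% to 21.6% over all libraries.

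**Figure D3:**
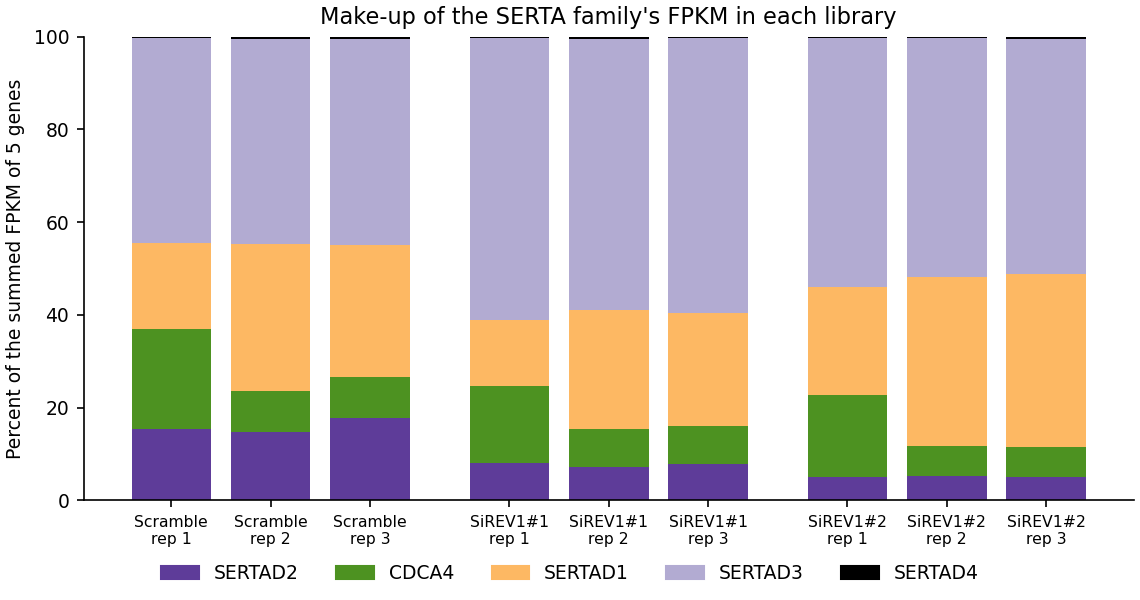
Percent of the summed FPKM of 5 SERTA domain genes taken by each gene, in stacked bars, in the 9 libraries by group and replicate (rep). The SERTAD2 segment at the base was between 14.8% and 17.7% in Scramble, 7.27% and 8.13% after SiREV1#1, and 5.07% and 5.27% after SiREV1#2.

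Relative to each other member, SERTAD2 was lower in 3 of 3 pairs for both siRNAs. On the log2(FPKM + 0.1) scale the change of SERTAD2 minus that of the other member was -0.73 for SERTAD1, -0.85 for CDCA4, -0.86 for SERTAD4 and -1.46 for SERTAD3 after SiREV1#1. After SiREV1#2 it was -1.20 for CDCA4, -1.36 for SERTAD4, -1.84 for SERTAD3 and -1.92 for SERTAD1. The smallest of these differences, to SERTAD1 after SiREV1#1, had a 95% interval of -1.09 to -0.36 with the block and -1.74 to 0.28 without it. All of these differences hold the fall of SERTAD2, a gene that the study picked from these libraries, so their tests are not independent evidence. With the replicate number as a block, limma called 4 of 4 differences for each siRNA. Adjusted p ranged from 7.89e-05 to 0.0129 for SiREV1#1 and from 2.82e-05 to 0.000906 for SiREV1#2. The difference to SERTAD4 after SiREV1#1 missed the threshold without Scramble replicate 3 (adjusted p = 0.0564) or SiREV1#1 replicate 2 (0.0900). The same test called 92.7% and 96.0% of the 11429 genes set against SERTAD2, so the other members differed from SERTAD2 as most genes did. Without the block, 0 of 4 differences passed after SiREV1#1, where 0% of genes were called. After SiREV1#2, 2 of 4 passed, those to SERTAD1 and SERTAD3 (limma adjusted p = 0.0498 for each), where 6.14% of genes were called, and neither passed when any library other than Scramble replicate 1 was left out. Exact permutation tests of the ratios gave p = 0.1, the smallest possible, for SERTAD3 and SERTAD4 with both siRNAs and for SERTAD1 with SiREV1#2, p = 0.2 for SERTAD1 with SiREV1#1 and p = 0.3 for CDCA4 with each siRNA.

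**Figure D4:**
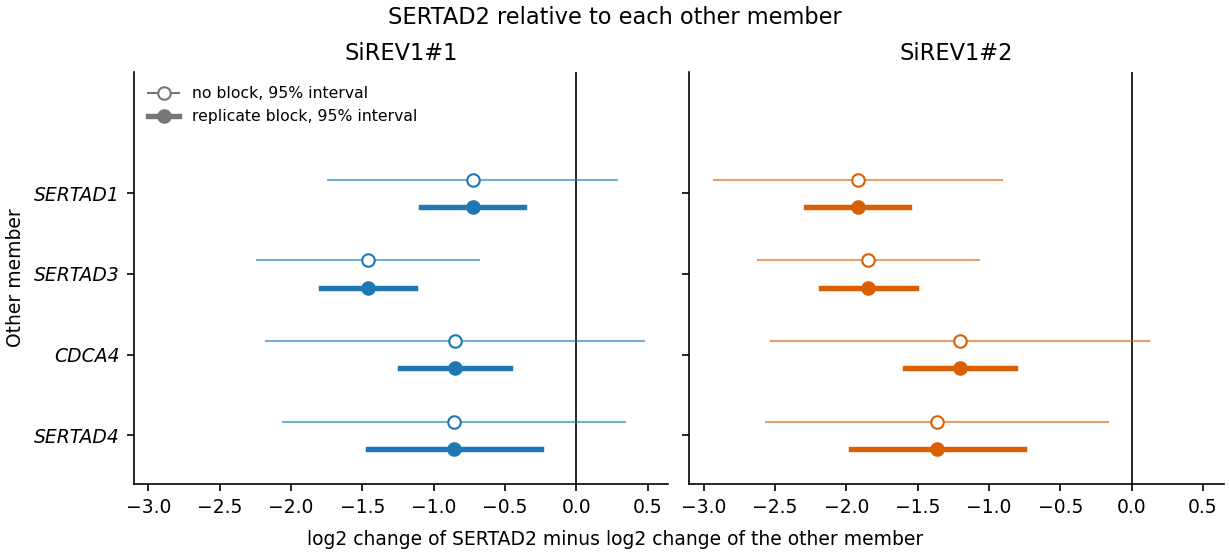
The log2 change of SERTAD2 minus the log2 change of each other member, on the log2(FPKM + 0.1) scale, with 95% intervals from limma without (open) and with (filled) the replicate number as a block. The 8 estimates lie between -1.92 and -0.73, and every interval with the block lies below 0. All of them hold the fall of SERTAD2, which the study picked from these libraries.

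The SERTAD genes also differed between replicates in the same way in every group. The mean of replicates 2 and 3, taken on the log scale, was above replicate 1 in each group, by 4.73-fold, 4.90-fold and 5.48-fold for SERTAD1 in Scramble, SiREV1#1 and SiREV1#2. For SERTAD2 it was 3.04-fold, 2.56-fold and 3.50-fold higher, for SERTAD3 2.92-fold, 2.71-fold and 3.33-fold, and for SERTAD4 2.98-fold, 2.63-fold and 3.53-fold. CDCA4, at 1.19-fold, 1.39-fold and 1.26-fold, and REV1, at 1.13-fold, 1.20-fold and 0.906-fold, showed little of it. All 4 SERTAD genes were thus more than 2-fold lower in replicate 1 in all 3 groups, as were 8.77% of the 11430 genes. What set replicate 1 apart is not given by the labels and was not tested.

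**Figure D5:**
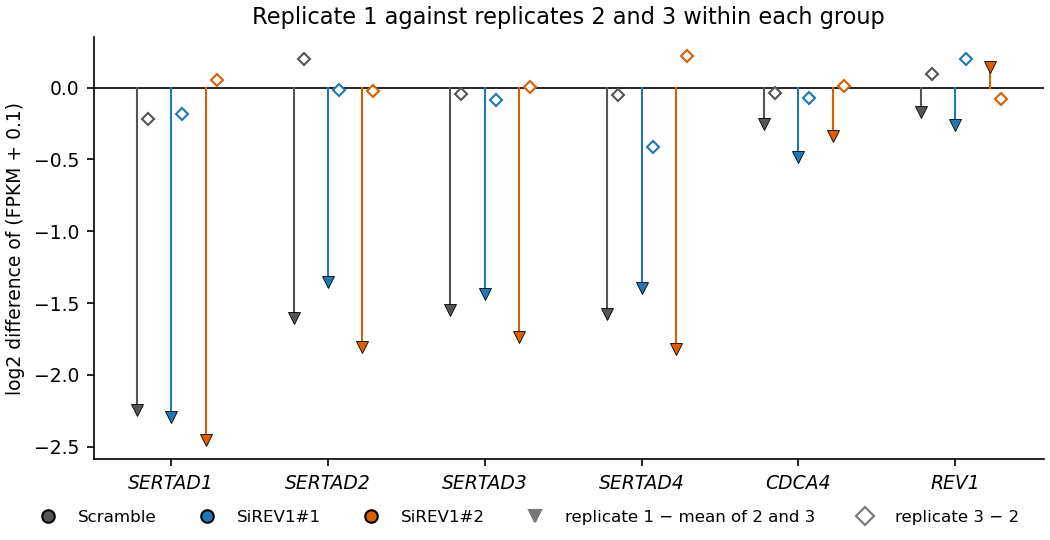
The log2 difference of (FPKM + 0.1) between replicate 1 and the mean of replicates 2 and 3 (triangles), and between replicates 3 and 2 (diamonds), in each of the 3 groups. Triangles lie below -1 for SERTAD1, SERTAD2, SERTAD3 and SERTAD4 in every group and above -1 for CDCA4 and REV1.

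An siRNA can also act on transcripts that match bases 2 to 8 of its guide strand, so the transcripts of the family were searched for the matching words. The words were CAGGAAT for SiREV1#1, GGACGAC for SiREV1#2 and TGTCACG for the scramble siRNA, taking the strand printed in the study's methods as the sense strand. CAGGAAT and TGTCACG occurred in 0 of the 5 members' transcripts. CAGGAAT was held by 14.5% of 17181 genes in the 3′ untranslated region and by 14.8% in the coding sequence. GGACGAC occurred once, in the coding sequence of SERTAD2, and 9.03% of genes held it in the coding sequence. This site is shown because it was the 1 match of this length in the family. It starts at base 411 of the coding sequence, in exon 2 of 2 of SERTAD2-201, with the word in capitals.
SERTAD2, chr2:64636444-64636472, minus strand: tcactgctcgaGGACGACgatgacacgtt
Of the 6-base words left when the first letter is dropped, AGGAAT (SiREV1#1) occurred 4 times in the 3′ untranslated region of SERTAD2, 2 times in that of CDCA4 and once in the coding sequence of SERTAD4, and 37.9% of genes held it in the 3′ untranslated region. This share takes no account of length or of the number of matches, and 89.9% of genes have a shorter 3′ untranslated region than SERTAD2. GACGAC (SiREV1#2) occurred 2 times in the coding sequence of SERTAD2, where 19.4% of genes held it. These are matches of letters, and their part in the values was not tested.

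Of the 8 measured genes nearest to the members on their chromosomes, SYT14, beside SERTAD4, was too low to test and the other 7 did not pass without or with the block. AFTPH and SLC1A4, on either side of SERTAD2, had log2 fold changes of -0.17 and 0.45 after SiREV1#1 and 0.29 and -0.29 after SiREV1#2 in edgeR with the block. PRX and BLVRB, which flank the pair of SERTAD1 and SERTAD3, had -0.02 and 0.41 after SiREV1#1 and 1.08 (adjusted p = 0.13) and 0.22 after SiREV1#2. HHAT, on the other side of SERTAD4, had -0.08 and -0.27, and CLBA1 and GPR132, which flank CDCA4, had -0.35 and 0.99 after SiREV1#1 and 0.019 and 0.12 after SiREV1#2.

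Across the 9 libraries the genes whose log2(FPKM + 0.1) was most like that of SERTAD2 were KIF2C (Pearson r = 0.976), TRAIP (0.976), EZH2 (0.975), GPBP1 (0.974) and CDCA5 (0.970). The points share the shift of replicate 1, and the 9 libraries are 3 groups of 3. After each replicate number was centred on its mean, the 5 nearest of 11429 genes were MYO9B (0.996), AGO2 (0.995), CIT (0.987), GPBP1 (0.984) and GOSR2 (0.982), and GPBP1 was in both lists. AGO2, which encodes the Argonaute protein that carries siRNA guides, was at 5.29, 5.57 and 6.44 FPKM in Scramble, 3.46, 3.4 and 3.79 FPKM after SiREV1#1, and 2.82, 3.55 and 3.43 FPKM after SiREV1#2. By the same centred measure REV1 was at 0.933 (rank 62), CDCA4 at 0.753 (rank 618), SERTAD4 at 0.440, SERTAD1 at -0.103 and SERTAD3 at -0.821 (rank 11150 of 11429). As deposited, the members' correlations with SERTAD2 were 0.882 for CDCA4, 0.810 for SERTAD4, 0.686 for SERTAD1 and 0.608 for SERTAD3.

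Of 9 known binding partners of SERTA proteins, 0 rose and 1 fell after each siRNA in edgeR with the block, against 12.3% and 1.91% of all genes in either direction. XPO1, the exportin that takes SERTAD2 out of the nucleus, fell by 0.70 (SE 0.12, adjusted p = 0.0125) on the log2 scale after SiREV1#1, and its value after SiREV1#2 was -0.04 (SE 0.15, adjusted p = 0.915). TFDP1, the DP partner of E2F, fell by 1.77 after SiREV1#2 (SE 0.20, adjusted p = 0.00923), and its value after SiREV1#1 was -0.60 (SE 0.16, adjusted p = 0.0504). Between the siRNAs 4 of the 9 partners differed in edgeR with the block, against 17.6% of all genes. TFDP1 was higher after SiREV1#1 than after SiREV1#2, by 1.17 (SE 0.20, adjusted p = 0.00841). XPO1 (-0.65, SE 0.14, adjusted p = 0.0205), RPA2 (-0.58, SE 0.14, adjusted p = 0.0300) and XIAP (-0.68, SE 0.16, adjusted p = 0.0271), an inhibitor of caspases, were lower. The median of the 9 genes was -0.19 after each siRNA, beside 0.00 and 0.01 for all genes tested. CDK4 had 0.09 and -0.13, E2F1 -0.64 and -0.85, RPA2 -0.16 and 0.42, and the coactivator EP300 0.10 and -0.33 after SiREV1#1 and SiREV1#2, of which none passed against Scramble.

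Of 14 E2F-responsive genes, 1 rose and 3 fell after SiREV1#1, and 1 rose and 1 fell after SiREV1#2, in edgeR with the block, where 12.3% and 1.91% of all genes were called in either direction. CDC25A, a phosphatase that activates cyclin-dependent kinases, rose by 0.58 (SE 0.13, adjusted p = 0.0299) and 0.89 (SE 0.15, adjusted p = 0.0331) on the log2 scale. CCNE2 (-1.81, SE 0.36, adjusted p = 0.018), which encodes a cyclin E, CDC6 (-0.73, SE 0.15, adjusted p = 0.0218), a factor that loads the replicative helicase, and TK1 (-0.55, SE 0.15, adjusted p = 0.0489), a thymidine kinase, fell after SiREV1#1. CCNE2 had few reads, with 95.07, 19.33 and 17.75 counts in Scramble replicates 1, 2 and 3 and 13.09, 9.65 and 3.1 after SiREV1#1. MYBL2, a transcription factor of the cell cycle, fell by 2.33 (SE 0.18, adjusted p = 0.00481) after SiREV1#2, where its value after SiREV1#1 was 0.03 (SE 0.14, adjusted p = 0.909). Between the siRNAs, where 17.6% of all genes were called, MYBL2 (2.36, SE 0.18, adjusted p = 0.000712) and CCNE1 (0.94, SE 0.22, adjusted p = 0.0259) were higher after SiREV1#1 and CCNE2 (-1.77, SE 0.39, adjusted p = 0.0199) was lower. The median of the 14 genes was -0.38 after SiREV1#1 and -0.42 after SiREV1#2, beside 0.00 and 0.01 for all genes tested. Without the block none of the genes of either list passed after either siRNA in edgeR, and MYBL2 was the 1 gene of the lists that passed between the siRNAs (2.28, SE 0.32, adjusted p = 0.0359).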

How the data were processed

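RNA of 9 libraries (3 groups of 3) was sequenced on the BGISEQ-500 platform. Per the labels and file headers, the authors deposited for each library expected counts per gene, which are not normalised (42.6% of values were not whole and were rounded here), and FPKM values with 2 decimals, for 18143 genes. The submitters' processing notes name StringTie 1.3.3b and hg38. The aligner's role, the annotation and strandedness are not given in the sources used here. The count column supplied for SiREV1#2 replicate 3 repeats that of replicate 2 and was counted once. No column of other samples was present.

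Counts of 8 libraries were tested in 1 fit with edgeR 4.0.16 under R 4.3.3 (filterByExpr, 14205 genes, TMM, quasi-likelihood test, Benjamini-Hochberg adjusted p under 0.05). FPKM values of 9 libraries were tested with limma 3.58.1 after adding a pseudocount of 0.1 and taking log2, in 11430 genes (mean FPKM above 1, or family members), a scale that understates changes of low genes, and ratios of SERTAD2 to each of 11429 genes in the same way. Same-numbered libraries deviated together in 9 of 9 pairs, with correlations above 0.1, so the numbers were taken to pair the libraries, by the labels' numbering and this check. Libraries of different numbers were not correlated. The shift of replicate 1, shared by the groups, enters the check, which therefore cannot show that replicates 2 and 3 pair by number. Alternatives were the replicate block, DESeq2 1.42.0 and its size factors, no filter, counts as deposited (with the repeated column kept), CPM, a pseudocount of 1, replicates 2 and 3 only, and leaving out each library. The block together with leaving out each library was added after seeing the data. The edgeR, limma and ratio fits, without and with the block, and DESeq2 without it were first tested on simulated counts. In these, known genes had been changed after SiREV1#1 only. The other alternatives were not simulated. Named genes were, by rule, the 5 members, REV1, the gene of largest change in each direction of each list, the nearest measured genes on the chromosome and the 5 genes most like SERTAD2. CDC6, TK1, CCNE1, XIAP, CDK4 and E2F1 were named after their values were seen. The members and lists were chosen with earlier results of these data known.

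Positions and sequences are RefSeq's for GRCh38.p14, with transcripts of GENCODE release 29, and all 5 members matched by symbol. Other steps ran in Python 3.11.15, with pandas 2.3.3 and numpy 2.4.6 for tables, scipy 1.17.1 for exact tests and matplotlib 3.10.9 for figures. Intervals of counts cover counting error only.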

Additional observations from a re-analysis of the deposited data

Results flagged for a closer look

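The difference of SERTAD1 between the siRNAs was singled out because the 2 siRNAs against the same gene gave opposite values in every same-numbered pair. The log2 fold change after SiREV1#1 minus that after SiREV1#2 was -0.88 in edgeR with the replicate number as a block (adjusted p = 0.00639), and -0.72 without it (adjusted p = 0.884). SERTAD1 was higher after SiREV1#2 than after SiREV1#1 in 3 of 3 pairs of FPKM values, and what lies behind the difference was not tested.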

How the results depend on the processing

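The replicate block decided most calls. Against 0 members called without it after SiREV1#1, after SiREV1#2 and between the siRNAs, edgeR with the block called 2, 1 and 1, limma on FPKM with the block 3, 3 and 1, and edgeR on replicates 2 and 3 only 4, 3 and 2. DESeq2, its size factors in edgeR, no filter, counts as deposited (in which SiREV1#2 replicate 2 enters again as replicate 3) and limma without the block called 0. For these fits no share of all genes called was taken, so 0 cannot be set against a background. Members lower in every pair after SiREV1#2 were 2 on FPKM, over 3 pairs, and 3 on CPM, over 2 pairs. The added member, SERTAD4, was higher on FPKM in replicate 3 (log2 ratio 0.17), a pair that CPM lacks. The log2 fold change of SERTAD2 kept its direction under all of these, and passed the threshold after SiREV1#1 with the block (-1.16), in limma with the block (-1.24) and in replicates 2 and 3 only (-1.32), and after SiREV1#2 at -1.42, -1.41 and -1.33. SERTAD1 between the siRNAs passed at -0.88, -1.02 and -1.04. Of the differences of SERTAD2 to the 4 other members, 0 passed after SiREV1#1 without the block and 4 with it or in replicates 2 and 3 only. After SiREV1#2, 2 passed without the block, 4 with it or in replicates 2 and 3 only, and 0 on CPM or with no filter. For the ratios in replicates 2 and 3 only, on CPM or with no filter, no share of all genes was taken. The difference of SERTAD4 between the siRNAs, 0.08 without the block, was -0.27 with counts as deposited, -0.34 in limma without and with the block, -0.15 with a pseudocount of 1 and -0.42 in replicates 2 and 3 only, none past the threshold, and the cause was not tested.

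Leaving out 1 library without the block, SERTAD2 ranged from -1.61 to -0.94 after SiREV1#1 and from -2.77 to -0.96 after SiREV1#2, with 0 members called, and between 0 and 3 differences to the others passed after SiREV1#2. Ranges that crossed 0 were, after SiREV1#1, SERTAD3 at -0.11 to 0.56, and after SiREV1#2, SERTAD1 at -1.39 to 1.00, SERTAD3 at -0.83 to 0.87 and SERTAD4 at -3.17 to 0.35. Between the siRNAs they were SERTAD1 at -1.47 to 0.93, SERTAD2 at -0.29 to 1.53, SERTAD3 at -0.62 to 1.08, SERTAD4 at -0.80 to 2.73 and CDCA4 at -0.23 to 0.076. With the block as well, SERTAD2 ranged from -1.35 to -1.02 (6 of 8 fits passed) and from -1.67 to -1.21 (4 of 8 passed), 0 to 2, 0 to 3 and 0 to 1 members were called, and 3 to 4 and 4 of the differences to the other members passed. SERTAD3 at -0.24 to 0.031 and SERTAD4 at -0.28 to 1.20 between the siRNAs crossed 0 there. Where a group kept 1 library, it was assumed to vary like the other groups. For the fits that left out a library, no share of all genes called was taken. SERTAD4 had the fewest reads, with 6 to 85 counts per library.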
